A study of Homo sapiens with 10 samples.

Results

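Histones are the proteins that DNA is wound around, and 82 of the 22626 rows of the read-count table of this experiment are histone genes by their symbol. They were taken as the rows whose symbol starts with H1- and a number, H2AC, H2BC, H3C or H4C and a number, H2AX, H2AJ, H2AZ1, H2AZ2, MACROH2A, H3-3A or H3-3B, with the older HIST and H3F3 names also searched. By these symbols 70 were replication-dependent genes (6 for H1, 17 for H2A, 19 for H2B, 13 for H3 and 15 for H4), of which 55 lie in the HIST1 cluster on chromosome 6. The other 12 were variant genes, namely 4 for H1, 6 for H2A and 2 for H3.

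RNA was sequenced from ARPE-19, a human cell line of the retinal pigment epithelium (RPE), after 48 h in 1 of 2 media. The control group (n = 5) was kept in 5.5 mM D-glucose with 32 mM mannitol, which matches the osmotic load, and the HG group (n = 5) in 37.5 mM D-glucose. The study used the HG medium as a cell model of diabetes, and the comparison asks which transcripts differ between the 2 media. All 10 libraries come from this 1 cell line, and the labels do not say whether they were separate cultures, so p-values measure the spread between these libraries, which may be technical.

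Replication-dependent histone genes supply the bulk histones of newly copied DNA. Their mRNAs are made mainly in S phase and end in a stem-loop, bound by the protein SLBP, in place of a poly(A) tail. Variant genes mostly lie outside the clusters, are transcribed through the cell cycle, carry introns in many cases and give ordinary polyadenylated mRNAs. Their proteins replace bulk histones at chosen places: H3.3 at active genes, H2A.Z at promoters, macroH2A in repressed chromatin. H2AX, whose protein is phosphorylated around DNA breaks, makes both kinds of mRNA. Some cluster genes, among them H2AC6, H2BC12 and H2BC21, are known to make a polyadenylated mRNA as well, and non-dividing cells contain mainly that form.

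The stem-loop is printed below for 5 replication-dependent genes of the results and for H2AX, because its place in the annotated transcript differs between genes. Each line gives transcript sequence of GENCODE 29 (GRCh38) in the sense direction, read around the stem-loop of the longest coding model that holds it, with the stem-loop in capitals.
H2AC25: acataaaGGCTCTTTTCAGAGCCacctact
H2BC26: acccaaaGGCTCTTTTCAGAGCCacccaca
H2AC6: acccaaaGGCTCTTTTCAGAGCCcccctac
H3C6: atccaaaGGCTCTTCTCAGAGCCaaccact
H4C8: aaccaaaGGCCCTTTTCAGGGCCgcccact
H2AX: ccacaaaGGCCCTTTTAAGGGCCaccaccg
The stem-loop pattern was found in a coding transcript of 50 of 19684 protein-coding genes (0.254%), and 30 of those 50 are histone genes of this set. The models of all 6 genes shown go on past it, by 390 bases in H2AC25, 1917 in H2BC26, 1114 in H2AC6, 1862 in H3C6, 630 in H4C8 and 1044 in H2AX.

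Libraries held 33039260 to 45864176 counts in the control group and 32448991 to 44400714 in the HG group, so that 3 counts, taken as the floor of detection, are worth 0.0669 to 0.0912 CPM, the count scaled to library size. These floors cover counting error only, whereas the standard errors and SDs given below also hold the spread between libraries. A pair of libraries stood apart: the slope of a gene's level on its GC content was 0.188 and 0.170 (log2 per 10 points of GC) in the deposited column HG_1 and in control replicate 2, against -0.0916 to -0.0052 in the other 8. This touches the histone genes: control replicate 2 was the highest of the 5 control libraries for 15 of 31 tested genes. HG_1 was the highest of the 5 HG libraries for 17 of 31. Values without both are therefore given for the histone genes described here whose call they change. Of 14 RPE markers in the table, 10 passed the filter on low counts. The RPE transcription factors OTX2 (87.0 to 102.3 CPM) and MITF (43.9 to 64.9 CPM) and the keratin gene KRT8 (1052 to 2088 CPM) were present in every library, whereas RPE65, the isomerase of the visual cycle, was at 0 in 9 of 10 libraries, TTR was at 0 in all, and TYR and DCT were below 1 CPM. BEST1, an anion channel gene of this epithelium, was at 264.0 and 551.5 CPM in control replicates 1 and 4 and at 0.577 to 7.79 CPM in the other 8 libraries. KRT8, KRT18 and the pigment gene PMEL were called lower in HG by edgeR, 3 of 10 tested markers beside 7.8% of all rows. All 10 had a log2 fold change below 0, from -4.97 (BEST1) to -0.0091 (TYRP1). An unadjusted p under 0.05 was reached by 7 of them, BEST1 included, beside 28.5% of all rows in either direction. DESeq2 called 5 of 13 markers lower and limma 3 of 10. The GC and length correction and the fit without both control replicate 2 and HG_1 each called 7 of 10 lower. The summed CPM of the RPE list was 2834 to 3591 in control and 1797 to 2471 in HG libraries and was mostly KRT8 (means 1864 and 1211 CPM) and KRT18 (1060 and 659.4 CPM). Of 11 genes of other cell types, 4, CRX among them, were at 0 throughout, and PTPRC, the pan-leukocyte marker, stayed below 0.1 CPM. The summed CPM of that list was 55.2 to 82.1 in control and 102 to 144 in HG libraries and was almost all CD68, which was called higher in HG. The part of these marker differences in the histone results was not tested.

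The variant genes carried nearly all of the histone reads. Summed over the 12 variant genes the level was 1525 ± 73.0 CPM in control and 1653 ± 57.7 CPM in HG (SD, n = 5), or 0.145% to 0.169% of a library's counts. Over the 70 replication-dependent genes it was 88.1 ± 6.64 and 89.7 ± 8.14 CPM, or at least 0.00829% of the counts in each library. Levels of single genes are compared per length, in the authors' FPKM, fragments per kilobase of transcript scaled to library size. Each gene's level is its mean over 10 libraries. The median of these means, genes at 0 included, was 57.6 FPKM over the 12 variant and 0.102 FPKM over the 70 replication-dependent genes. The highest variant gene was H2AZ1 (455.5 FPKM), followed by H3-3A (154.3), H3-3B (116.7), MACROH2A1 (95.4) and H2AZ2 (63.7). The highest replication-dependent gene was H2BC12, at 35.0 FPKM, followed by the linker histone gene H1-2 (11.8), H2AC6 (10.7) and H2AC25 (6.70). The labels do not say whether RNA was selected by its poly(A) tail or by removal of ribosomal RNA, so a low abundance of stem-loop mRNA and its loss in library preparation cannot be told apart.

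**Figure D1:**
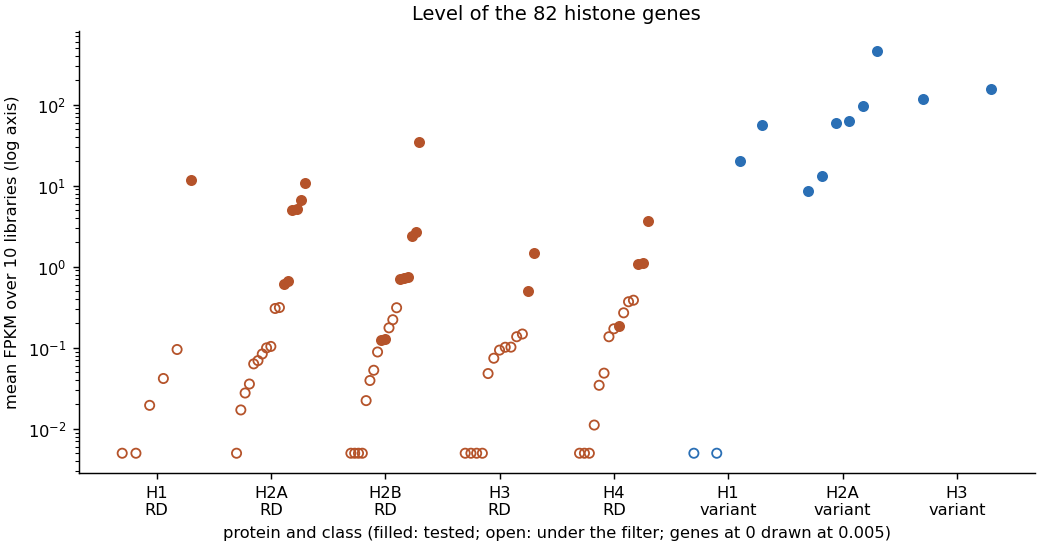
Mean FPKM over 10 libraries (log axis) of each of the 82 histone genes, by histone protein and class (RD, replication-dependent). The 10 tested variant genes lie between 8.67 and 455.5 FPKM and the replication-dependent genes reach at most 35.0 FPKM, 3 of them above 10 FPKM.

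Of the 70 replication-dependent genes, 21 passed the default edgeR filter on low counts, and 16 had at least 10 counts in every library. The 49 others were 14 at 0 in every library, 25 with fewer than 10 counts in any library and 10 that reached 10 counts in some. The 14 at 0 were H1-1, H1-6, H2AC1, H2BC1, H2BC9, H2BC10, H2BC14, H3C7, H3C8, H3C11, H3C12, H4C6, H4C7 and H4C13, 3 of them (H1-6, H2AC1, H2BC1) genes known for expression in testis. Among the variant genes H1-7 and H1-8, the linker histones of sperm and egg cells, were at 0 in every library, which allows a level of up to 0.0669 to 0.0912 CPM, and the other 10 were tested. Reads concentrated in few genes: the 8 replication-dependent genes with the highest mean CPM (H2AC6, H2BC12, H1-2, H2AC25, H4C8, H2BC21, H3C6 and H2AC18) held 80.8% of the summed replication-dependent level.

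Of the 21 replication-dependent genes that passed the filter, 13 have an annotated transcript that continues for at least 100 bases past the stem-loop. Of 23 replication-dependent genes whose longest stem-loop model goes on for at least 100 bases, 13 passed the filter (56.5%) and 2 were at 0. Of 37 with no stem-loop in a coding model, 4 passed (10.8%) and 12 were at 0. The 4 that passed include H2BC12 and H1-2, the 2 highest of the whole class per length. A model with no stem-loop does not show that the gene lacks one. Many of the 37 models are short (381 bases in H2BC12, 411 in H3C1) and may end before it. The 6 genes whose model ends within 100 bases gave 2 that passed, and the 4 without a GENCODE 29 model (H2AC18, H2AC19, H3C2 and H3C3) also gave 2. The median level was 0.306 FPKM, 0.0357 FPKM, 0.235 FPKM and 2.58 FPKM in these 4 sets in this order. The models come from the annotation and not from these libraries, the FPKM divides by the authors' own transcript lengths, and longer models can collect more reads, so these values describe the annotation beside the counts and no test was made.

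**Figure D2:**
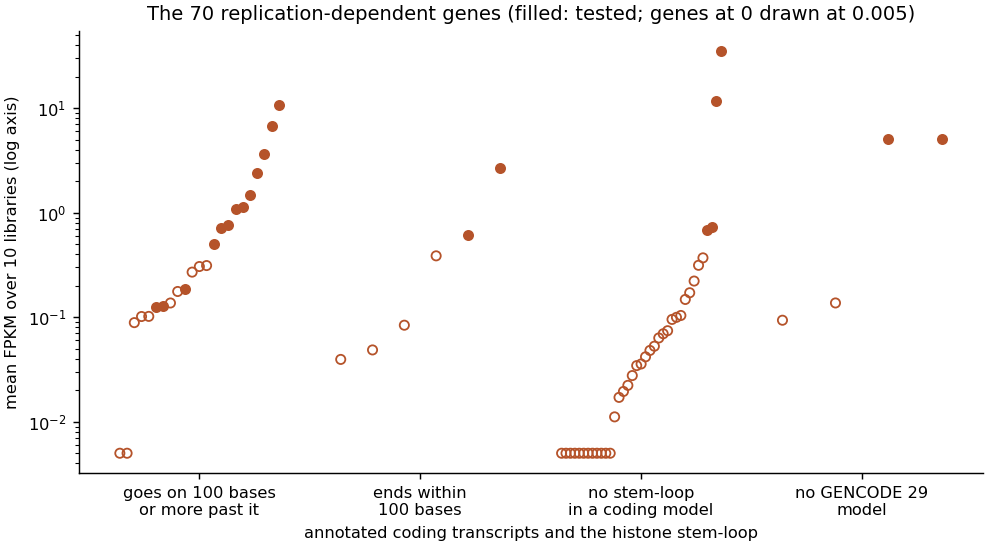
Mean FPKM over 10 libraries (log axis) of the 70 replication-dependent genes, by where the longest GENCODE 29 coding model that holds the stem-loop ends. Of 23 genes with a model going on past it 13 are filled (tested), against 4 of 37 with no stem-loop in a coding model, most of which lie below 0.1 FPKM.

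In the edgeR fit of all 10 libraries few histone genes were called between the media. Over 14936 rows, the quasi-likelihood test of edgeR called 2303 at a Benjamini-Hochberg adjusted p under 0.05, a background of 15.4%, with 7.62% higher and 7.8% lower in HG. Of 31 tested histone genes 4 were called (12.9%): H3-3B, H2AZ1 and the replication-dependent H2BC26 were higher in HG and MACROH2A1 was lower. This share is near the background. Without both control replicate 2 and HG_1, 8 of 31 histone genes were called, and 4035 of all 14899 rows. Under the GC and length correction it was 9 of 29, and 3965 of 13538 rows. By class, 1 of 21 replication-dependent genes was called higher and 0 lower (at an unadjusted p under 0.05 1 was lower, and DESeq2 called 2 higher and 0 lower), and 2 of 10 variant genes were called higher and 1 lower. With a fold limit of 1.5 as well, which 3.69% of rows pass, H2BC26 alone remained. At an unadjusted p under 0.05, which 28.5% of rows pass, 3 of 21 replication-dependent and 5 of 10 variant genes passed. The median log2 fold change was 0.08 over the tested replication-dependent genes (12 positive, 9 negative, range -0.59 to 0.77), 0.15 over the variant genes (7 positive, 3 negative, -0.15 to 0.29) and 0.0013 over all rows. The replication-dependent median turned negative without HG_1 (-0.04), HG_2 (-0.0028) or control replicate 3 (-0.04) and under the GC and length correction (-0.0011), and the variant median was 0.06 without HG_1. In bulk RNA a change in the share of cells in a phase or state and a change per cell cannot be told apart.

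**Figure D3:**
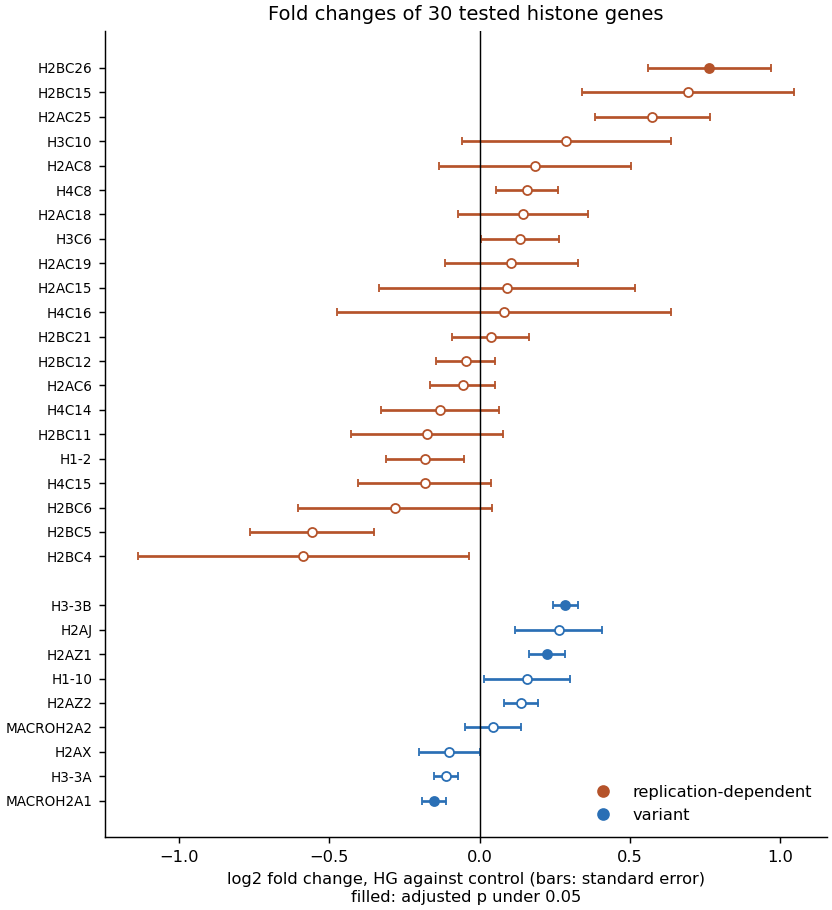
Log2 fold change of HG against control with its standard error for 30 of the 31 tested histone genes, 21 replication-dependent (top) and 9 variant (bottom), filled where the adjusted p is under 0.05. Variant genes lie between -0.15 and 0.29 with short bars; replication-dependent genes spread from -0.59 to 0.77, and H2BC26 alone is filled among them.

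H3.3, the replacement form of H3, is encoded by H3-3A and H3-3B, whose mRNAs differ while the protein is the same. H3-3B (chr17:75776434-75785893, minus strand) stood at 279.9, 317.2, 284.4, 290.4 and 302.6 CPM in control replicates 1 to 5 and at 364.6, 358.7, 361.1, 351.1 and 361.7 CPM in HG_1 to HG_5. Every HG library lay above every control library, and the HG libraries varied less. The mean rose from 294.9 ± 15.1 to 359.4 ± 5.11 CPM (log2 fold change 0.29, SE 0.042, edgeR adjusted p = 0.00128, exact two-sided permutation p = 0.00794, the smallest that 5 against 5 libraries allow). Over all rows, 6.74% had every HG library above every control library and 6.91% every HG library below, and of the 31 histone genes 3 did so above and 1 below. H3-3B was called in each of the 10 fits that leave out 1 library, at log2 fold changes of 0.27 to 0.31, and in all 9 other settings.

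H3-3A (chr1:226061851-226072001, plus strand) stood at 175.8, 176.9, 167.7, 173.7 and 177.9 CPM in control and at 170.7, 157.6, 156.4, 157.3 and 165.2 CPM in HG. The groups overlapped by the HG_1 value alone, and the log2 fold change of -0.11 (SE 0.039) missed the threshold in edgeR (adjusted p = 0.0836). It passed without HG_1 (-0.13, edgeR adjusted p = 0.0264). Without both HG_1 and control replicate 2 it was -0.13 (edgeR adjusted p = 0.0133). Under the GC and length correction it was -0.18 (edgeR adjusted p = 0.0201), and DESeq2 gave an adjusted p of 0.0239. On FPKM values limma gave -0.05 (adjusted p = 0.699). The ratio of H3-3B to H3-3A CPM was 1.59 to 1.79 in control and 2.14 to 2.31 in HG libraries, with no overlap, and their sum went from 469.3 ± 17.7 to 520.8 ± 10.4 CPM, also with no overlap. Of H3-3A's 100-base windows 10.4% occur in another annotated gene, mainly the pseudogene H3F3AP4, against 0.614% for H3-3B, and the H3-3B locus overlaps the gene UNK on the other strand. Among the other variant genes, overlaps on the other strand are annotated for H3-3A (AL512343.2), H2AZ1 (AC097460.1), MACROH2A1 (C5orf66 and AC026691.1), MACROH2A2 (AIFM2) and H1-10 (H1FX-AS1). The sources used here do not say whether counting used the strand.

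The promoters of both genes are shown because the 2 mRNAs for 1 protein stood in different places in the comparison. Each is 250 bases before to 50 after the RefSeq start (GRCh38.p14), 5′ to 3′ along the gene, with 3 motifs in capitals, counted wherever they begin and with overlaps allowed. These are the CCAAT box, spelled CCAAT and on the other strand ATTGG, the TATA sequence, spelled TATAAA and searched on the gene strand only, and the octamer, spelled ATTTGCAT and on the other strand ATGCAAAT.
H3-3B, chr17:75779730-75780029, minus strand: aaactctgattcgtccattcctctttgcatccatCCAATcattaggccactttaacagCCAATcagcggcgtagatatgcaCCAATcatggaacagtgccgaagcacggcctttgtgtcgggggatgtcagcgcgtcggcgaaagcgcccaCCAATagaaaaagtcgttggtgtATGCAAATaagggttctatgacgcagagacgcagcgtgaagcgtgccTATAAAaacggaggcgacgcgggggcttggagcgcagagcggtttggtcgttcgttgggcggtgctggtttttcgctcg
H3-3A, chr1:226061581-226061880, plus strand: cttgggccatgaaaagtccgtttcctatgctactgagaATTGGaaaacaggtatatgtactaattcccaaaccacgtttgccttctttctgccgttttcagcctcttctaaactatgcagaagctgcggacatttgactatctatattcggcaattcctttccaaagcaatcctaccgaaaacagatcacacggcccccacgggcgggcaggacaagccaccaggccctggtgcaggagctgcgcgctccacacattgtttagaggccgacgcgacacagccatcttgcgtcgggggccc
H3-3B has 4 CCAAT boxes, 1 TATAAA and 1 octamer, and H3-3A has 1 CCAAT box and neither other motif. H3-3B is the 1 variant gene of 11 in the promoter table that holds the octamer.

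H2A.Z is likewise encoded by a pair of genes, whose proteins differ at few residues. H2AZ1 (chr4:99948086-99950388, minus strand) stood at 352.5, 432.1, 378.9, 416.1 and 384.5 CPM in control and at 489.5, 432.8, 439.4, 476.8 and 456.2 CPM in HG. The groups met without overlapping, since the highest control value (432.1, replicate 2) lay just below the lowest HG value (432.8, HG_2). The mean rose from 392.8 ± 31.5 to 458.9 ± 24.1 CPM (log2 fold change 0.22, SE 0.061, edgeR adjusted p = 0.0303, exact two-sided permutation p = 0.00794). The call was lost without control replicates 1, 3 or 5, HG_4 or HG_5, where the log2 fold change was 0.19 to 0.23 and the edgeR adjusted p 0.0594 to 0.0753. With the GC and length correction the change was 0.13 (edgeR adjusted p = 0.0277).

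H2AZ2 (chr7:44826791-44848083, minus strand) stood at 208.7, 186.7, 191.0, 199.7 and 202.7 CPM in control and at 195.0, 224.5, 209.5, 239.3 and 220.0 CPM in HG. HG_1 lay within the control range, and the log2 fold change of 0.14 (SE 0.058) missed the threshold (edgeR adjusted p = 0.142). It passed without HG_1 (0.18, edgeR adjusted p = 0.0278), without both HG_1 and control replicate 2 (0.16, edgeR adjusted p = 0.0287) and under the GC and length correction (0.13, edgeR adjusted p = 0.0175). On log2(FPKM + 1) it was 0.06 (limma adjusted p = 0.603). The sum of both genes went from 590.6 ± 26.1 to 676.6 ± 26.3 CPM, and every HG library lay above every control library. H2AZ1 shared none of its 100-base windows with another annotated gene, and H2AZ2 shared 1.46%.

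MacroH2A carries a large globular domain beside its H2A part and is enriched in repressed chromatin. MACROH2A1 (chr5:135333900-135399914, minus strand) stood at 200.1, 204.9, 193.8, 217.9 and 200.8 CPM in control and at 184.5, 178.6, 181.6, 186.6 and 184.3 CPM in HG. Every HG library lay below every control library, the nearest values being 186.6 in HG_4 and 193.8 in control replicate 3. The mean fell from 203.5 ± 8.98 to 183.1 ± 3.08 CPM (log2 fold change -0.15, SE 0.040, edgeR adjusted p = 0.0253, exact two-sided permutation p = 0.00794). The call was lost without control replicates 4 or 5, HG_2, HG_3 or HG_5, where the edgeR adjusted p was 0.0523 to 0.0708 and the log2 fold change -0.13 to -0.16. Its paralog MACROH2A2 was lower in level, at 8.67 against 95.4 FPKM, and had a log2 fold change of 0.04 (SE 0.093, edgeR adjusted p = 0.820) between 15.2 to 19.6 CPM in control and 15.5 to 19.7 CPM in HG.

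**Figure D4:**
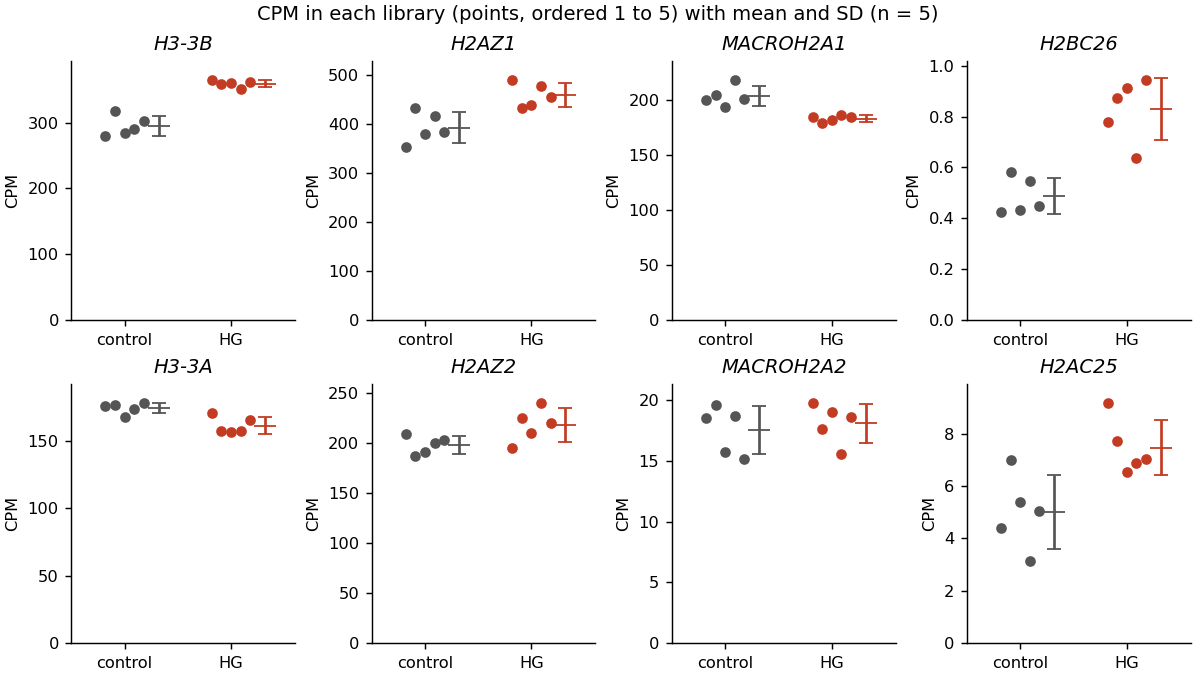
CPM in each of 10 libraries, control replicates 1 to 5 and HG_1 to HG_5 from left to right in each group, with the mean and SD (n = 5), for 4 pairs of related histone genes. The groups do not overlap for the genes of the top row (H3-3B, H2AZ1, MACROH2A1 and H2BC26) and overlap for their partners below.

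No other variant gene was called. H2AX stood at 92.9 to 125.8 CPM in control (median 100.4) and at 86.3 to 117.6 CPM in HG (median 93.9), a log2 fold change of -0.10 (SE 0.10, edgeR adjusted p = 0.580). H1-10, a linker histone gene transcribed outside S phase, stood at 73.7 to 110.5 CPM in control (median 82.9) and 85.4 to 133.3 CPM in HG (median 88.1), a log2 fold change of 0.16 (SE 0.14, edgeR adjusted p = 0.535). For both genes control replicate 2 and HG_1 were the highest libraries of their groups. The log2 fold change of H1-10 was 0.02 without HG_1 (edgeR adjusted p = 0.936), 0.26 without control replicate 2 (edgeR adjusted p = 0.208) and 0.12 without both (edgeR adjusted p = 0.0817). It passed in 1 setting, the GC and length correction (0.17, edgeR adjusted p = 0.0031). That of H2AX was -0.18 without HG_1 and -0.02 without control replicate 2 (edgeR adjusted p = 0.172 and 0.906). H2AJ (chr12:14774383-14778002), an H2A gene, lies near the replication-dependent H4C16 (chr12:14767999-14771131). It stood at 6.12 to 9.94 CPM in control and 8.73 to 12.8 CPM in HG, a log2 fold change of 0.26 (SE 0.15, edgeR adjusted p = 0.269). That change was 0.17 without HG_1 or without control replicate 1 (edgeR adjusted p = 0.426 and 0.466).

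Among the replication-dependent genes the HIST3 cluster on chromosome 1 was the one with a called gene. It contributed H2AC25 (chr1:228456979-228457873, minus strand) and H2BC26 (chr1:228458107-228460470, plus strand), which encode an H2A and an H2B and are transcribed away from each other. H2BC26 stood at 0.425, 0.583, 0.433, 0.545 and 0.449 CPM in control and at 0.779, 0.873, 0.914, 0.638 and 0.943 CPM in HG, from 14 to 41 counts a library. The groups did not overlap, and the mean rose from 0.487 ± 0.0722 to 0.829 ± 0.123 CPM (log2 fold change 0.77, SE 0.20, edgeR adjusted p = 0.0280, exact two-sided permutation p = 0.00794). Leaving out control replicates 1, 3 or 5, HG_2, HG_3 or HG_5 lost the call (edgeR adjusted p 0.0678 to 0.0739). On log2(FPKM + 1) the change was 0.08 (limma adjusted p = 0.129) and on log2(FPKM + 0.1) it was 0.39 (limma adjusted p = 0.0837), and a pseudocount shrinks the change of so low a gene. Of its 100-base windows, 3.53% occur in HIST3H2BA.

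H2AC25 stood at 4.397, 7.02, 5.41, 3.15 and 5.03 CPM in control and at 9.17, 7.73, 6.53, 6.87 and 7.02 CPM in HG, from 104 to 353 counts. Control replicate 2 reached into the HG range, and the log2 fold change of 0.58 (SE 0.19) missed the threshold in edgeR (adjusted p = 0.0670). Without control replicate 2 it was 0.73 (edgeR adjusted p = 0.0170), without both control replicate 2 and HG_1 0.65 (edgeR adjusted p = 0.0186), with the GC and length correction 0.53 (edgeR adjusted p = 0.0123), in DESeq2 0.57 (adjusted p = 0.0263) and on log2(FPKM + 1) 0.44 (limma adjusted p = 0.0220). The mean was 5.00 ± 1.42 CPM in control and 7.47 ± 1.05 CPM in HG. None of its windows is shared with another gene.

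The starts of H2AC25 and H2BC26 lie 230 bases apart, so their 300-base promoter windows share 271 bases. The H2AC25 window is shown, with capitals as above, because it covers the whole stretch between the 2 starts and a short part past each.
H2AC25, chr1:228457824-228458123, minus strand: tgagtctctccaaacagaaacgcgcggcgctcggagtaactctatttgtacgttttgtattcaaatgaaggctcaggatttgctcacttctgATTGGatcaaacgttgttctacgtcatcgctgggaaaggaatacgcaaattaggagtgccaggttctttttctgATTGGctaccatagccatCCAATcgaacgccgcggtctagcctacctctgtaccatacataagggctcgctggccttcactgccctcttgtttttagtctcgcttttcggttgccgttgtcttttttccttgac
It holds 3 CCAAT boxes and neither TATAAA nor the octamer. For contrast, the highest replication-dependent gene per length has all 3 motifs.
H2BC12, chr6:27146809-27147108, minus strand: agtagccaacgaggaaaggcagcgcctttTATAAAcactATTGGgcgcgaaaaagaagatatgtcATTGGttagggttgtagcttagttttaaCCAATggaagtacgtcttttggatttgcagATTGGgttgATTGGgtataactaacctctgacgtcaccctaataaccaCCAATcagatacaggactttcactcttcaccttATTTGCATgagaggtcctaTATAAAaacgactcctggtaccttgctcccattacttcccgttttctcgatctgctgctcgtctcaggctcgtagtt

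Across RefSeq promoter windows of this length (27305 genes) the CCAAT box is found in 35.7%, TATAAA in 7.71% and the octamer in 1.80%. Of the replication-dependent genes 64 had a window, of which 84.4% hold the CCAAT box, 57.8% TATAAA and 40.6% the octamer. The octamer divides them by protein: 14 of 18 H2B windows and 11 of 16 H2A windows hold it, against 1 of 11 for H3 and 0 of 13 for H4 and 0 of 6 for H1. The CCAAT box is in every H1, H2A, H2B and H3 window and in 3 of 13 H4 windows. Of 11 variant windows 8 hold the CCAAT box, 4 TATAAA and 1 the octamer. A match is a run of letters and was not tested as a binding site.

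The 6 replication-dependent genes listed as makers of polyadenylated mRNA (H1-2, H2AC6, H2BC4, H2BC5, H2BC12 and H2BC21) all passed the filter, and 0 were called in edgeR, DESeq2 or limma, 1 having an unadjusted p under 0.05, beside backgrounds of 15.4% called and 28.5% at an unadjusted p under 0.05, with a median log2 fold change of -0.12. With so few genes 0 calls do not set the list apart from that background. H2AC6, an H2A gene, stood at 16.2 to 23.7 CPM in control (median 17.8) and 16.1 to 19.7 CPM in HG (median 18.6), a log2 fold change of -0.06 (SE 0.11, edgeR adjusted p = 0.796). H2BC12 stood at 18.0 to 20.9 CPM in control (median 18.6) and 16.4 to 23.4 CPM in HG (median 17.5), a log2 fold change of -0.05 (SE 0.099, edgeR adjusted p = 0.819). For H2AC6 4 of 5 HG libraries lay within the control range. For H2BC12 1 of 5 did, while 3 lay below every control library and HG_1 above every one, and without HG_1 the log2 fold change was -0.14 (edgeR adjusted p = 0.149), as it was under the GC and length correction (edgeR adjusted p = 0.228). Of the H2BC12 windows 28.4% also occur in H2BFS. H1-2 had a log2 fold change of -0.18 (SE 0.13, edgeR adjusted p = 0.414), which was -0.30 without HG_1 (edgeR adjusted p = 0.0544), -0.31 without both HG_1 and control replicate 2 (edgeR adjusted p = 0.0534) and -0.11 without HG_5 (edgeR adjusted p = 0.656). H2BC21 had 0.04 (SE 0.13, edgeR adjusted p = 0.893).

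The 2 remaining genes of that list were lower in level. H2BC5 stood at 3.18, 2.40, 3.08, 2.78 and 2.31 CPM in control and at 2.00, 1.45, 2.21, 2.43 and 1.25 CPM in HG, a log2 fold change of -0.56 (SE 0.21, edgeR adjusted p = 0.0970). The groups overlapped through HG_4, and H2BC5 passed in the GC and length correction (-0.66, edgeR adjusted p = 0.0288). H2BC4 had a log2 fold change of -0.59 with a standard error of 0.55 (edgeR adjusted p = 0.551), which was -0.28 without HG_2 and -0.93 without HG_5 (edgeR adjusted p = 0.681 and 0.365).

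Among the other leading replication-dependent genes, H4C8 stood at 4.69 to 6.30 CPM in control and 5.35 to 6.49 CPM in HG, a log2 fold change of 0.16 (SE 0.10, edgeR adjusted p = 0.359). H3C6 had a log2 fold change of 0.13 (SE 0.13, edgeR adjusted p = 0.565) and H2AC18 of 0.14 (SE 0.22, edgeR adjusted p = 0.735). Leaving out 1 library gave 0.07 to 0.19 for H3C6 and 0.10 (without control replicate 5) to 0.21 for H4C8, which was 0.07 under the GC and length correction and 0.24 on log2(FPKM + 0.1). For H2AC18 it gave 0.03 without HG_1, 0.04 without control replicate 3 and 0.34 without control replicate 2 (edgeR adjusted p = 0.947, 0.947 and 0.251). H2BC15, named after its values were seen because its fold was the second highest, stood at 0.426 to 2.22 CPM in control and 2.11 to 2.57 CPM in HG, a log2 fold change of 0.69 (SE 0.35, edgeR adjusted p = 0.228), and its locus overlaps 3 annotated genes. Near-identical copies limit some values: all 100-base windows of the H4C14 model and 94.9% of those of H4C15 occur in the other, so their counts (1.56 and 1.65 CPM on average) could be split between the 2 in any proportion. H2AC18 and H2AC19 ranged from 1.95 to 4.22 and from 2.13 to 4.21 CPM, and their shared windows could not be checked because GENCODE 29 has no model of either.

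Of 18 genes for the synthesis, 3′ end processing and decay of histone mRNA, 2 were called, both lower, which is 11.1% beside a background of 15.4% in either direction and 7.8% lower. DESeq2 called 3 lower, the fit without both control replicate 2 and HG_1 4, and the GC and length correction 3 lower and 1 higher. The cyclin gene CCNE2 went from 6.81 to 3.94 CPM (log2 fold change -0.79, SE 0.18, edgeR adjusted p = 0.0144), and its partner kinase gene CDK2 from 41.8 to 35.2 CPM (-0.25, SE 0.054, edgeR adjusted p = 0.0101). SLBP stood at 88.9 CPM in control and 88.6 CPM in HG (log2 fold change -0.0048, SE 0.053, edgeR adjusted p = 0.967), and NPAT, the coactivator of the histone clusters, had a log2 fold change of -0.08 (SE 0.13, edgeR adjusted p = 0.753).

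Of 14 replication-coupled histone chaperones and their partners, 7 were called lower and 0 higher (1 higher at an unadjusted p under 0.05, and 7 lower and 0 higher in DESeq2), beside a background of 7.8% lower, with a median log2 fold change of -0.19. They were CHAF1A and CHAF1B, subunits of the CAF-1 complex that sets H3 and H4 on new DNA (-0.41 and -0.37), the H3-H4 carriers ASF1B (-0.38), NASP (-0.28) and DNAJC9 (-0.26), TONSL (-0.38), which binds new H4 behind the fork, and the helicase subunit MCM2 (-0.26). CHAF1A went from 42.2 to 31.7 CPM (SE 0.078, edgeR adjusted p = 0.0050) and NASP from 84.7 to 69.7 CPM (SE 0.055, edgeR adjusted p = 0.0059). ASF1A, the paralog of ASF1B, had a log2 fold change of 0.11 (SE 0.050, edgeR adjusted p = 0.166).

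Of 15 chaperones and exchange factors of variant histones, 0 were called by edgeR's quasi-likelihood test, 3 were lower at an unadjusted p under 0.05, and their median log2 fold change was -0.08, beside backgrounds of 15.4% called, 7.8% called lower and 28.5% at an unadjusted p under 0.05 in either direction. DESeq2 called 2 of them lower, the GC and length correction 4 and the fit without both control replicate 2 and HG_1 3, while limma called 0. HIRA, which deposits H3.3 outside S phase, had -0.07 (SE 0.041, edgeR adjusted p = 0.314), DAXX, which deposits it in heterochromatin, -0.21 (SE 0.068, edgeR adjusted p = 0.0600), and ANP32E, which removes H2A.Z, -0.08 (SE 0.078, edgeR adjusted p = 0.568). The highest value of the list was that of SRCAP, which exchanges H2A for H2A.Z, at 0.96 (SE 0.53, edgeR adjusted p = 0.270): it stood at 77.1 and 84.9 CPM in HG_1 and HG_4 and at 14.0 to 23.5 CPM in the other 3 HG libraries, and at most 41.4 CPM in control, so that the groups overlapped. The difference between the 2 chaperone lists was not tested.

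Beside these lists, 14 of 26 S phase genes were called lower and 0 higher (16 and 1 in DESeq2; 17 and 1 at an unadjusted p under 0.05), beside backgrounds of 7.8% lower and 7.62% higher, with a median log2 fold change of -0.28. MCM6, a subunit of the replicative helicase, went from 76.6 to 48.1 CPM (log2 fold change -0.67, SE 0.056, edgeR adjusted p = 6.97e-05), while the sliding clamp gene PCNA went from 176.7 to 195.4 CPM (0.15, SE 0.050, edgeR adjusted p = 0.0780). MCM2 is in both lists. The summed level of the S phase list was 1987 to 2139 CPM in control and 1669 to 1936 CPM in HG, whereas that of the 70 replication-dependent histone genes was 82.6 to 98.9 and 83.3 to 104 CPM, overlapping over most of its range. The genes of these lists named here beyond CCNE2, SLBP and NPAT were chosen after their values were seen.

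**Figure D5:**
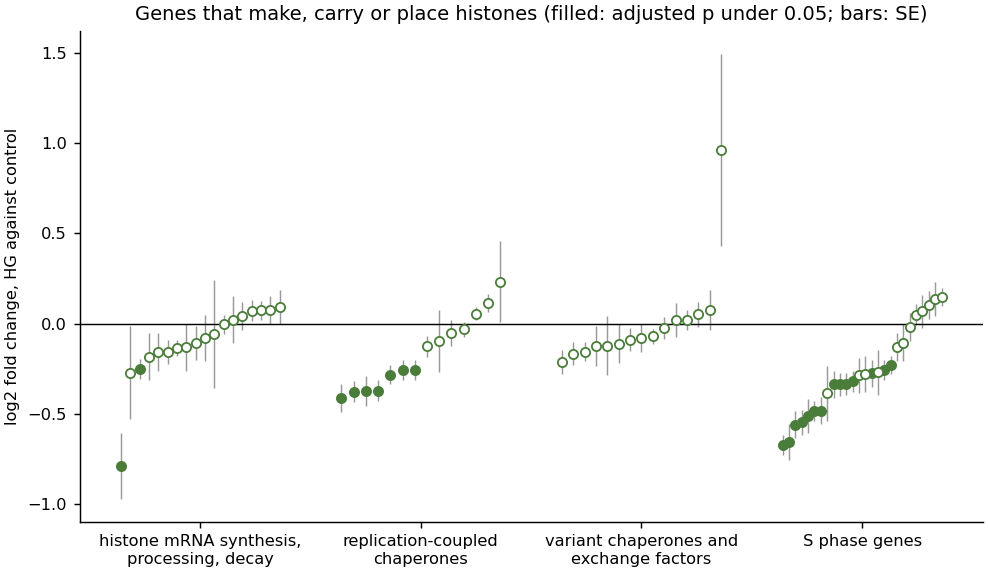
Log2 fold change of HG against control with its standard error for the genes that make histone mRNA, carry new histones to copied DNA or exchange variant histones, and for S phase genes, filled where the adjusted p is under 0.05. All filled points (2 of 18, 7 of 14, 0 of 15 and 14 of 26) lie below 0.

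Of 13 further histone symbols listed as outside the gene names above, 10 had a row under that symbol. The rest (H2AW, H2BU1 and H2BS1) were listed with the second names HIST3H2A, HIST3H2BB and H2BFS. In GENCODE 29 these are H2AC25, H2BC26 and H2BC12L, which are counted with the replication-dependent genes here. Some of the 10, H1-10 among them, are counted with the variant genes. The tested others were the centromeric H3 gene CENPA (log2 fold change 0.07, SE 0.098, edgeR adjusted p = 0.712), H3-7 (0.19, SE 0.11, edgeR adjusted p = 0.288) and H3-5 (0.46, SE 0.26, edgeR adjusted p = 0.282), none of them past the test or with an unadjusted p under 0.05; DESeq2 called 0 as well.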

How the data were processed

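RNA-seq of 10 ARPE-19 libraries (5 control, 5 HG) was used as 2 tables. The authors deposited whole-number read counts per gene, not normalized, and FPKM values, scaled by transcript length and library size. The submitters' processing notes name GRCh38, fastp 0.20.1 and HISAT2 2.2.1; the counter and annotation are not given in the sources used here, and neither is the poly(A) or ribosomal RNA step. Columns HG_1 to HG_5 name the group but no single labelled sample, so they keep their deposited names.

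Counts of all rows went through edgeR 4.0.16 (R 4.3.3): filterByExpr, TMM, quasi-likelihood test, Benjamini-Hochberg over 14936 rows, with calls at an adjusted p under 0.05. CPM use TMM library sizes. The same test was also run on simulated counts, with an outcome that is not reported here. DESeq2 1.42.0, limma 3.58.1, other scalings and filters, left-out libraries and a GC and length offset (lowess, span 0.3, on the 90.64% of rows with both values) were alternatives. Transcripts and overlaps came from GENCODE 29, promoters from RefSeq. Genes named are every called histone gene, the 8 replication-dependent genes highest in CPM, every tested variant gene except 1 that is not reported here, the polyadenylated list, SLBP, NPAT and called partners that changed over 1.5-fold; others are marked. The members and gene lists were chosen with earlier results of these data known. The 20 pairs of libraries within a group differed beyond counting noise (chi-square per gene 13.8 to 78.5).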

Additional observations from a re-analysis of the deposited data

Results flagged for a closer look

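Among 62 groups of 5 libraries tested for 1 library far from the others (gap over 0.71 of the range), 6 had one, where chance gives about 3.1. Control replicate 2 stood apart for H1-10, with 110.5 CPM where the remaining control libraries had 73.7 to 83.2, and for H2AX, at 125.8 CPM against 92.9 to 101.6. HG_1 stood apart for H1-10, with 133.3 CPM where the remaining HG libraries had 85.4 to 89.4, for H2BC12, at 23.4 CPM against 16.4 to 18.1, and for the summed level of the 8 leading replication-dependent genes, at 84.9 CPM against 67.6 to 71.5. HG_5 was the lowest HG library for H4C8, at 5.35 CPM against 6.23 to 6.49. Of these 6 values 5 fell in the pair of libraries with a positive slope on GC content, and the coding models of H1-10 and H2AX have a GC content of 68.6% and 66.4%; the part of GC content in these values was not tested.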

How the results depend on the processing

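No paired analysis was possible because the labels number the control samples and letter the HG samples, so they share no replicate number; the deposited columns are numbered 1 to 5 in both groups, but nothing ties the HG numbers to labelled samples or to a common batch, and a block on them was not fitted. Counts of called histone genes were small and moved with single libraries: leaving out 1 library gave 0 to 2 replication-dependent genes higher, 1 to 3 variant genes higher and 0 to 2 lower, with 1648 to 2993 rows called in all. The median log2 fold change of the replication-dependent genes was then -0.040 to 0.10, and that of the variant genes 0.06 to 0.16. DESeq2 called 2 replication-dependent genes higher and 2 variant genes lower. Without both control replicate 2 and HG_1, 2 replication-dependent genes and 4 variant genes were higher and 2 variant genes lower, the replication-dependent median was 0.0083, and 4035 rows were called. With the GC and length correction 2 replication-dependent genes were higher and 1 lower, 4 variant genes higher and 2 lower, the replication-dependent median was -0.0011, and 3965 rows were called. The cause of these moves was not tested.

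H3-3B was called in every setting run, H2AZ1 and MACROH2A1 in all 9 settings other than leaving out 1 library (5 of 10 each there), and H2BC26 in 7 of 9 (4 of 10). Signs turned only for genes with no call, near 0. Leaving out 1 library gave H2AC6 -0.11 to 0.034, H2BC21 -0.040 to 0.13, MACROH2A2 -0.0049 to 0.094, NPAT -0.16 to 0.0055 and SLBP -0.037 to 0.033. H2AC6 was 0.0083 without both libraries, and H2BC21 was -0.0011 under the GC and length correction. SLBP was 0.0091 with library size alone, 0.021 on both FPKM scales and 0.028 without both libraries. Counting H2AX with the replication-dependent genes, leaving out the testis-type genes, RLE scaling, library size alone and both other filters left each count of calls within 1.5 times. Counts of 14 to 41 a library limit H2BC26, and 49 replication-dependent genes fell below the default edgeR filter, while DESeq2, run without it, fitted 56 of 70 and edgeR with no filter tested 66 of all 82 histone genes.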
